A study of Mus musculus with 6 samples.

Results

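Fibroblasts rich in transcripts of Comp, Cilp and Thbs4 were counted and described in the injured mouse heart. A cell entered the group when it came from the infarct or peri-infarct library and met the filters of at least 500 detected genes and at most 10% mitochondrial UMIs (unique molecular identifiers, each standing for 1 captured transcript). It also had to give at least 1% of its UMIs to Col1a1, Col1a2 and Col3a1 together, hold no UMI of Cdh5, Ptprc, Kcnj8 or Wif1, and hold at least 10 UMIs of Comp, Cilp and Thbs4 per 10000. These cells are called members below, and the collagen-rich cells that met everything but the last condition are called others. There were 1781 members among 6682 such collagen-rich cells and among 37323 cells kept in all libraries of the series. The infarct library held 1468 members and 3721 others, so members were 28.3% of its eligible cells (95% Clopper-Pearson interval 27.1 to 29.5) and 16.9% of its 8681 kept cells. The peri-infarct library held 313 members and 1180 others, which made 21.0% of its eligible cells (18.9 to 23.1) and 3.93% of its 7956 kept cells.

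The libraries came from Tbx18CreER/+;Rosa26tdT/+ mice, in which tamoxifen, injected for 4 days and then washed out for a week, turns on tdTomato, a red fluorescent protein, in cells that express Tbx18, a transcription factor of mural and epicardial cells. The infarct and peri-infarct libraries hold tdTomato-sorted cells of the left ventricle infarct and of its border after LAD ligation, which ties off a coronary artery (left anterior descending) that feeds the left ventricle, and the heart sham library holds sorted cells of hearts without ligation. Brain libraries of a stroke model complete the series. Each group is 1 library, the time after injury and the number of animals behind a library are not given in the sources used here, and so no difference below has a replicate check or a test across animals. Since the sort was on the Cre label, the cells stand for labelled fibroblasts, not for all fibroblasts of the heart.

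Fibroblasts make and maintain the collagen-rich matrix of the heart, and after an infarct they build the scar that replaces lost muscle. COMP and thrombospondin-4 belong to the same family of secreted glycoproteins, bind collagen fibrils and are abundant in cartilage and tendon. CILP (cartilage intermediate layer protein) is a secreted matrix protein known to counter TGF-beta signalling, and LTBP2 belongs to the latent TGF-beta binding proteins and associates with elastic fibres. In mice, fibroblasts of the mature infarct scar have been described that express cartilage and tendon genes, among them Comp, Chad and Cilp2, and little smooth muscle actin.

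Promoter sequence is shown for 3 genes that were high together in the members, because Scx, which encodes a tendon transcription factor of the basic helix-loop-helix class, was high with them and factors of this class recognise the letters CANNTG. Each sequence runs 5' to 3' on the gene's own strand, with 250 bases before the transcription start and 50 after it, and capitals mark CANNTG. Cilp lies at chr9:65264930-65265229 on the plus strand, Thbs4 at chr13:92794769-92795068 on the minus strand and C1qtnf3 at chr15:10952082-10952381 on the plus strand of GRCm38.p6, and all are from RefSeq.
Cilp: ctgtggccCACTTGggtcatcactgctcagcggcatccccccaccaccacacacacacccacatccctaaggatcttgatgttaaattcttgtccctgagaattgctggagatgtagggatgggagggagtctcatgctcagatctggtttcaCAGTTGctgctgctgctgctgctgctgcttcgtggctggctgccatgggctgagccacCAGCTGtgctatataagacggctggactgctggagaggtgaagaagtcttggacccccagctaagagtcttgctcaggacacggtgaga
Thbs4: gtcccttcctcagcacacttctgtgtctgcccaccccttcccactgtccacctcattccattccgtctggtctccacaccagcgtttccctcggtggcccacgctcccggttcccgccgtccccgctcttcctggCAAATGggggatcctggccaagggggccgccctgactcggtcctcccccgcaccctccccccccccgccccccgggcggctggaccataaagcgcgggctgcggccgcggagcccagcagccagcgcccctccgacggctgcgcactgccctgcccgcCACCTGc
C1qtnf3: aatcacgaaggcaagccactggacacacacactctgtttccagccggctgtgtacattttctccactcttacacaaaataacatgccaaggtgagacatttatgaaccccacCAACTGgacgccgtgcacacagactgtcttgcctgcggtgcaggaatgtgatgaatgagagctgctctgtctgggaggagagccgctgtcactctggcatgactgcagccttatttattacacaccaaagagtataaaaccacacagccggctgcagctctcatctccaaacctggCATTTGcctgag
The Cilp window held 3 matches, the Thbs4 window 2 and the C1qtnf3 window 2. Among 14 windows of the 13 genes with an entry, out of 18 sought (the rule genes and the 15 highest below), 57.1% held CANNTG, against 72.3% of all 32851 promoter windows. CAGAC, the core of a SMAD binding element, stood in 57.1% of them and in 49.6% of all windows, and TGTGGT, a RUNX core, in 14.3% and in 16.8%. Both strands were searched and motifs could overlap. A match describes letters and not a site, and the missing matches say nothing of the factor.

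Total UMIs were 107892408 in the infarct library, 95248788 in the peri-infarct library and 32194158 in the heart sham library. Members had a median of 11619.5 UMIs in the infarct and 15377 in the peri-infarct library, and others had 13190 and 13679. The infarct and peri-infarct libraries shared 147 cell barcodes, none of them a member in both. In all, 16 members and 45 others of the infarct library, and 2 members and 14 others of the peri-infarct library, had a barcode that also occurs in another library. The 4 excluded transcripts removed 420 collagen-rich cells of the infarct library and 229 of the peri-infarct library, most of them for a Kcnj8 UMI (355 and 147). Intervals and limits in this text cover counting error only.

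The same rule applied to the other libraries found 8 members among 119 eligible cells of heart sham and 0 among 106 eligible cells of brain infarct, which allows a share of up to 2.83%. Brain sham and brain peri-infarct had 4 and 8 eligible cells, and no member. In heart sham, 151 of 13630 kept cells were collagen-rich, with a median of 1408 UMIs over kept cells, so a share of eligible cells there rests on few and shallow cells. Of the 8 sham members, 4 held at least 3 UMIs of the rule genes. Without the collagen and excluded-transcript conditions, 454 kept sham cells (3.33%) reached the rate with at least 3 such UMIs. That count was 1570 (18.1%) in infarct and 577 (7.25%) in peri-infarct. The median collagen share of kept sham cells was 0.244%. Summed over all kept cells, Comp stood at 259 CPM (UMIs scaled to a total of 1000000) in infarct, 129 CPM in peri-infarct and 142 CPM in sham. Cilp stood at 252, 161 and 39.7 CPM, and Thbs4 at 115, 58.8 and 13.5 CPM, in the same order. In summed libraries, fewer cells of a type and less RNA per cell cannot be told apart.

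The summed rate of the rule genes ran from 10.0 to 196.8 UMIs per 10000 in infarct members, with a median of 19.8, and from 10.1 to 113.7 in peri-infarct members, with a median of 20.4. Just inside the threshold, at 10 to under 12, lay 215 infarct and 39 peri-infarct members, and just outside it, at 8 to under 10, lay 255 and 50 others. In the infarct library 1237 others and in the peri-infarct library 573 others held no UMI of the 3 genes. The values of the rule genes describe the choice and support nothing: Comp stood at 1005 CPM in members and 121 CPM in others of the infarct library, and at 667 and 45.7 CPM in the peri-infarct library. Cilp stood at 983 CPM in members and 107 CPM in others of infarct, and at 1435 and 137 CPM in peri-infarct. Thbs4 stood at 529 and 12.8 CPM in infarct, and at 666 and 12.5 CPM in peri-infarct. When a random 50% of each cell's UMIs chose the members and the remaining 50% were counted, the log2 ratios of Comp, Cilp and Thbs4 in infarct were 2.78, 3.03 and 5.01, against 3.05, 3.19 and 5.27 with all UMIs used for both.

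**Figure D1:**
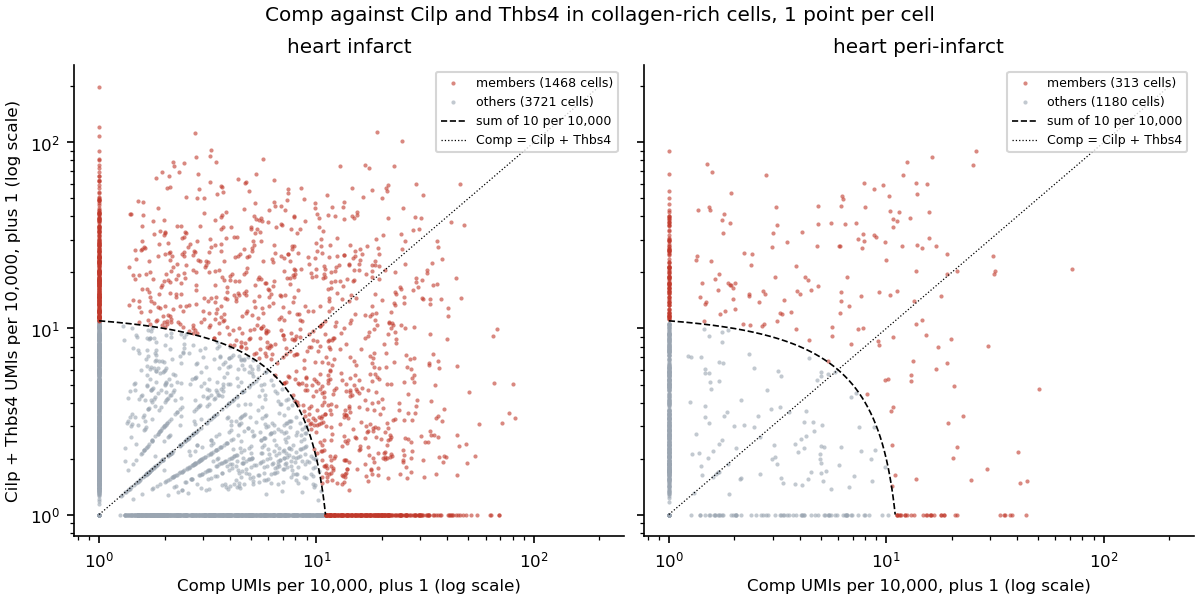
Each point is 1 collagen-rich cell, with its Comp UMIs per 10000 plus 1 on the horizontal axis and its Cilp and Thbs4 UMIs per 10000 plus 1 on the vertical axis, both on log scales, for infarct (left, 1468 members and 3721 others) and peri-infarct (right, 313 and 1180). Members fill the space beyond the dashed line of the rule, many of them along an axis with UMIs of Comp alone or of Cilp and Thbs4 alone.

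Marker levels describe the members and cannot test the label. The rule itself chose collagen-rich cells without the excluded transcripts. The endothelial cells set beside them were chosen with a Cdh5 UMI, collagens under 1% of UMIs and no Ptprc UMI. All 8 fibroblast markers were detected, and their summed level was 15416 CPM in members and 12837 CPM in others of infarct, and 17559 and 16945 CPM in peri-infarct, against 1012 and 2219 CPM in endothelial cells of these libraries. Ltbp2 was not used by the rule, but it was listed with the rule genes as a marker when earlier results of these data were known. It stood at 853 CPM in infarct members, against 347 CPM in infarct others, a fold of 2.46 (2.41 to 2.51). In the peri-infarct library Ltbp2 stood at 714 CPM in members, against 195 CPM in others, a fold of 3.67 (3.50 to 3.84). Dcn, a proteoglycan of fibroblasts, was 1.27-fold and 1.05-fold as high in members as in others, and Tbx18 stood at 26.2 and 26.0 CPM in members, against 23.7 and 35.0 CPM in others, in infarct and peri-infarct.

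Endothelial, leukocyte, pericyte, cardiomyocyte, erythroid and mesothelial lists were low in members, while the smooth muscle, tenocyte and valve interstitial lists were not. The summed endothelial list was 24.4 CPM in infarct members and 34.7 CPM in peri-infarct members, against 49.5 and 53.9 CPM in others, with Cdh5 at 0 by the rule. The leukocyte list was 37.1 and 12.7 CPM in members, against 30.6 and 39.5 CPM in others, and the pericyte list was 116 and 78.3 CPM, against 125 and 116 CPM. The cardiomyocyte list was 28.2 and 47.2 CPM in members, against 13.6 and 29.5 CPM in others. Haemoglobin and other erythroid transcripts stood at 1.0 and 1.499 CPM in members, against 16.4 and 207 CPM in others. The smooth muscle list stood at 1392 and 1177 CPM in members, against 1724 and 1106 CPM in others and 1674 and 1654 CPM in endothelial cells. The tenocyte list stood at 1873 and 1821 CPM in members, against 1238 and 1210 CPM in others and 589 and 675 CPM in endothelial cells. It includes Egr1, an immediate early gene that is not confined to tendon. Scx, Fmod and Col11a1, given below, make up the smaller part of its sums in members and others. The chondrocyte list stood at 239 and 196 CPM in members, against 148 and 149 CPM in others. The valve interstitial list stood at 990 and 998 CPM in members, against 733 and 773 CPM in others, with Wif1 at 0 by the rule. The part of these cell types in the results was not tested. The mesothelial list stood at 14.8 CPM in infarct members and 3.56 CPM in peri-infarct members, against 328 and 577 CPM in others. A UMI of Msln or Upk3b, which mark mesothelium and epicardium, was held by 41 of 1468 infarct members and 8 of 313 peri-infarct members, against 348 of 3721 and 116 of 1180 others.

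Genes high in both injured libraries are described below in groups by matrix, tendon and signalling roles. A gene was counted where its mean over both groups was at least 50 CPM and its ratio of CPM plus 1 was at least 2-fold. Of 2931 genes tested in infarct, 25 (0.853%) were higher and 29 (0.989%) lower in members than in others. Of 3021 tested in peri-infarct, 36 (1.19%) were higher and 50 (1.66%) lower. The libraries shared 19 higher genes, with Comp, Cilp and Thbs4 among them by choice, which were 76% of the infarct and 52.8% of the peri-infarct calls, and 19 lower genes, which were 65.5% and 38%. No gene was called in opposite directions. Without the cells whose barcode is also in another library, 25 and 37 genes were higher and 29 and 50 lower, and the same 19 and 19 genes were shared.

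Among tendon and cartilage genes, Scx stood at 177 CPM in members and 23.7 CPM in others of infarct, a fold of 7.46 (6.99 to 7.96). In peri-infarct it stood at 190 CPM in members and 14.01 CPM in others, a fold of 13.6 (11.8 to 15.6). A Scx UMI was found in 44.4% of infarct members and 45.4% of peri-infarct members, against 13.5% and 7.29% of others. With every cell thinned to 1000 UMIs, those shares were 12.8% and 12.1% in members, against 1.80% and 0.93% in others, and 0.61% and 0.27% in endothelial cells, whose median depth was 5886 and 7792 UMIs. Scx was thus present in a part of the members and far above the background level.

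Fmod encodes fibromodulin, a small leucine-rich proteoglycan that binds collagen fibrils. It stood at 313 CPM in infarct members, against 72.7 CPM in others, a fold of 4.31 (4.14 to 4.49). In peri-infarct it stood at 303 CPM in members, against 37.0 CPM in others, a fold of 8.21 (7.50 to 9.0). Col11a1, a minor fibrillar collagen chain known from cartilage, stood at 306 CPM in members and 145 CPM in others of infarct, and at 278 and 35.1 CPM in peri-infarct. Its level was alike in the members of both libraries, and its others differed 4.14-fold, infarct over peri-infarct.

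The genes Chad, Cilp2, Tnmd and Col2a1 lay below the 50 CPM needed for a count. Chad, which encodes the cartilage protein chondroadherin, had 374 UMIs in 108 of 1468 infarct members, against 85 UMIs in 42 of 3721 others. In peri-infarct Chad had 48 UMIs in 16 of 313 members, against 0 UMIs in 1180 others, which allows a Chad UMI in up to 0.254% of such cells and sets no limit on cells that express the gene. Cilp2, the paralogue of Cilp, was found in 15.8% and 17.9% of members, against 2.66% and 3.31% of others, at a fold of 9.38 (7.85 to 11.3) in infarct and 8.08 (5.91 to 11.2) in peri-infarct. Tnmd, the tendon protein tenomodulin, was held by 60 infarct members and 18 peri-infarct members, with 50.9% and 94.0% of its UMIs in the 10 cells highest for it. Col2a1, the main collagen of cartilage, stood at 26.7 and 10.7 CPM in members, against 4.42 and 0.50 CPM in others, and 10 peri-infarct members held all of its member UMIs. These genes were found in a minority of members. Prg4, of the cartilage and tendon matrix list, was called in neither library. It had 776 UMIs in 273 of 1468 infarct members, against 2256 UMIs in 503 of 3721 others. In peri-infarct it had 448 UMIs in 80 of 313 members, against 1801 UMIs in 273 of 1180 others. Relative to the total UMIs of each group, Prg4 was not higher in members in either library.

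Sox9, the transcription factor of cartilage, was 1.39-fold (1.33 to 1.45) in infarct and 1.24-fold (1.15 to 1.33) in peri-infarct, under the threshold in both. Mkx, a tendon homeobox factor, was close to 0, at 0.16 CPM in infarct members and 0 UMIs in peri-infarct members, and Matn1 and Col10a1 of the chondrocyte list had no UMI in any member. Of the list of cartilage and tendon matrix genes, 2 of the 5 tested were higher in each library, both times Fmod and Col11a1, and none was lower. Its median log2 ratio was 0.63 in infarct and 0.80 in peri-infarct, beside a median of about 0 (-0.00 and -0.01) over all genes tested. Of the tendon and cartilage transcription factors, 2 of 8 were higher in each, Scx and Meox1 in infarct and Scx and Runx1 in peri-infarct.

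Among secreted proteins, C1qtnf3 encodes a member of the C1q and TNF related family, also called cartducin. It stood at 354 CPM in infarct members, against 44.4 CPM in others, a fold of 7.98 (7.62 to 8.36). In peri-infarct it stood at 371 CPM in members, against 41.6 CPM in others, a fold of 8.91 (8.19 to 9.70). Its UMIs came from a part of the members: 39.2% of infarct and 33.2% of peri-infarct members held any, and the 10 highest peri-infarct cells held 48.7% of them. Fibin, a secreted protein named for its role in the fin bud of fish, was 3.12-fold in infarct and 3.01-fold in peri-infarct. The gene listed as 1500015O10Rik, known as Ecrg4 and encoding the secreted peptide augurin, stood at 748 and 596 CPM in members, against 336 and 174 CPM in others.

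In the collagen fibril and the matrix around it, Col12a1, a collagen that coats fibrils, stood at 200 CPM in infarct members and 208 CPM in peri-infarct members, against 86.5 and 55.8 CPM in others. Postn, the matricellular protein periostin of activated fibroblasts, stood at 5139 CPM in members and 2374 CPM in others of infarct, a fold of 2.17 (2.15 to 2.18), and at 5907 and 2591 CPM in peri-infarct, a fold of 2.28 (2.25 to 2.31). Aspn (asporin) was 2.28-fold and 2.26-fold and Abi3bp, a matrix protein, 2.18-fold and 2.19-fold. The main fibrillar collagens did not pass: Col1a1 was 1.09-fold in infarct and 1.55-fold in peri-infarct, and Col3a1 1.06-fold and 1.16-fold. Of 8 small leucine-rich proteoglycans tested, 3 were higher in infarct (Fmod, Aspn and Ecm2) and 2 in peri-infarct (Fmod and Aspn), with medians of 0.69 and 0.54.

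Intracellular genes of the group were Rflnb, which encodes the filamin-binding refilin B, at 457 CPM in infarct members and 144 CPM in others, and at 471 and 81.0 CPM in peri-infarct. Ddah1, an enzyme that degrades asymmetric dimethylarginine, stood at 824 and 286 CPM in infarct and at 748 and 160 CPM in peri-infarct. Nkd2, an inhibitor of Wnt signalling, was 2.18-fold and 2.23-fold, and Tspan6, a tetraspanin, 2.40-fold and 2.60-fold. Mest, an imprinted gene whose mean lay under the filter, stood at 62.3 CPM in infarct members and 82.0 CPM in peri-infarct members, against 6.87 and 6.45 CPM in others.

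**Figure D2:**
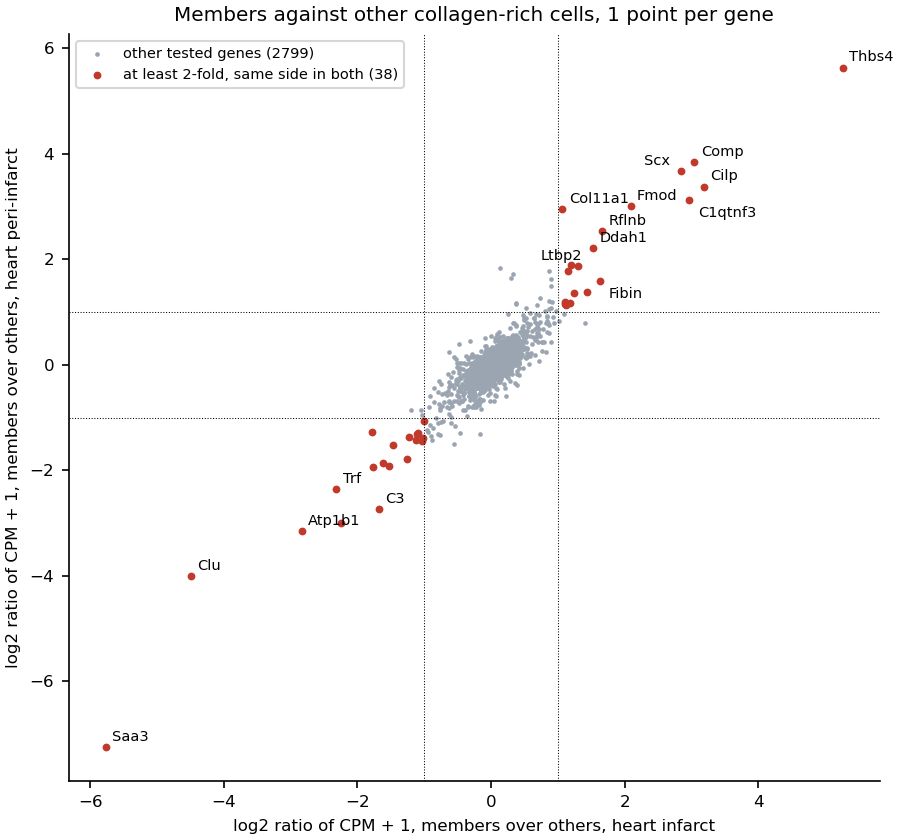
Each point is 1 gene tested in both libraries, with the log2 ratio of members over others in infarct on the horizontal axis and in peri-infarct on the vertical axis; dotted lines mark 2-fold. Thbs4, Cilp and Comp, which chose the cells, lie at the upper right with Scx, C1qtnf3 and Fmod, and Saa3, Clu and Atp1b1 lie at the lower left.

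None of the 17 TGF-beta and BMP genes tested was at least 2-fold in either library, and their medians were 0.21 and 0.14. Ltbp2 was the one higher gene among 16 tested latent TGF-beta binding and elastic fibre genes in infarct, and also among 18 in peri-infarct, where Efemp1 was lower. Acta2, smooth muscle actin, stood at 481 CPM in infarct members, against 823 CPM in others, a fold of 0.58 (0.57 to 0.60), and at 365 and 453 CPM in peri-infarct, a fold of 0.81 (0.77 to 0.85). At least 10 Acta2 UMIs per 10000 were held by 9.74% of infarct members and 5.43% of peri-infarct members, against 17.5% and 7.46% of others. Of 15 activated fibroblast and contractile genes tested, 3 were higher in infarct (Ddah1, Postn and Meox1) and 5 in peri-infarct (Cthrc1, Ddah1, Postn, Runx1 and Ptn), none was lower, and the medians were 0.25 and 0.70. The other thrombospondins stayed below 2-fold, Thbs1 at 1.39-fold and 1.63-fold, Thbs2 at 1.15-fold and 1.37-fold and Thbs3 at 1.42-fold and 1.23-fold.

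Complement, acute phase and cytokine genes were lower in members. Of 7 complement and acute phase genes tested in infarct, 5 were lower (C1s1, C3, C4b, Hp and Saa3), and of 6 in peri-infarct, 4 (C1s1, C1ra, C3 and Saa3), with medians of -1.61 and -1.53. Cytokines and chemokines had 3 of 6 lower in infarct (Il33, Ccl7 and Cxcl12) and 3 of 5 in peri-infarct (Il33, Cxcl1 and Cxcl12). C3, the central complement component, stood at 210 CPM in infarct members, against 675 CPM in others, and at 124 CPM in peri-infarct members, against 834 CPM in others. Saa3, an acute phase protein, stood at 4.69 CPM in infarct members, against 309 CPM in others. Peri-infarct members had 2 Saa3 UMIs, against 207 CPM in others, a fold of 0.0018 (0.00022 to 0.0065). The Saa3 level of the others came from few cells. A Saa3 UMI was held by 403 of 3721 infarct others (10.8%), against 46 of 1468 infarct members (3.13%). The 10 infarct others highest for Saa3 held 33.3% of its UMIs. Only 83 of 1180 peri-infarct others (7.03%) held one, with 63.9% of the UMIs in 10 cells. Clu, the secreted chaperone clusterin, stood at 16.4 and 14.6 CPM in members, against 390 and 250 CPM in others.

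Mesothelial markers were higher in others than in members, as given above, and calls were counted again without the cells that carry them. Without cells that hold an Msln or Upk3b UMI, 12 genes were lower in infarct and 26 in peri-infarct, and of the 19 lower genes shared by the libraries 5 were still called in both. Saa3 was no longer called in both, with log2 ratios of -4.88 and -5.45 at a low mean level, while Clu had log2 ratios of -4.57 and -2.61, Cxcl12 of -1.82 and -1.38, C3 of -1.18 and -1.85 and Dpep1 of -1.42 and -1.97. Of the 19 higher genes, 15 were still called in both. Postn, Col11a1, Aspn and Nkd2 were lost, with Postn at log2 ratios of 0.999 and 0.997, just under the threshold. Scx had 2.76 and 3.53, Fmod 2.10 and 3.31, C1qtnf3 2.88 and 2.98 and Ltbp2 1.19 and 1.72. Resident fibroblast genes had 2 of 18 lower in infarct (Dpep1 and C3) and 5 of 18 in peri-infarct (Dpep1, Gsn, Ly6a, Clec3b and C3).

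Levels were set against the rate of the rule genes. Ltbp2 stood at 185 CPM in infarct cells with no rule UMI, 379 CPM over 0 to under 5 per 10000, 543 CPM at 5 to under 10, 677 CPM at 10 to under 20, 957 CPM at 20 to under 40 and 1242 CPM at 40 or more. Scx followed the same order, with 9.04 CPM at no rule UMI and 393 CPM at 40 or more in infarct, and 4.96 and 410 CPM in peri-infarct. Both genes were higher in each higher class, including the classes below the threshold. These are sums over cells, and whether single cells form a gradient or the mix of cells changes by class was not tested. Elastin (Eln) did not follow that order: in infarct it stood at 1396 CPM with no rule UMI, 3346 CPM at 5 to under 10, 3178 CPM at 10 to under 20 and 897 CPM at 40 or more.

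**Figure D3:**
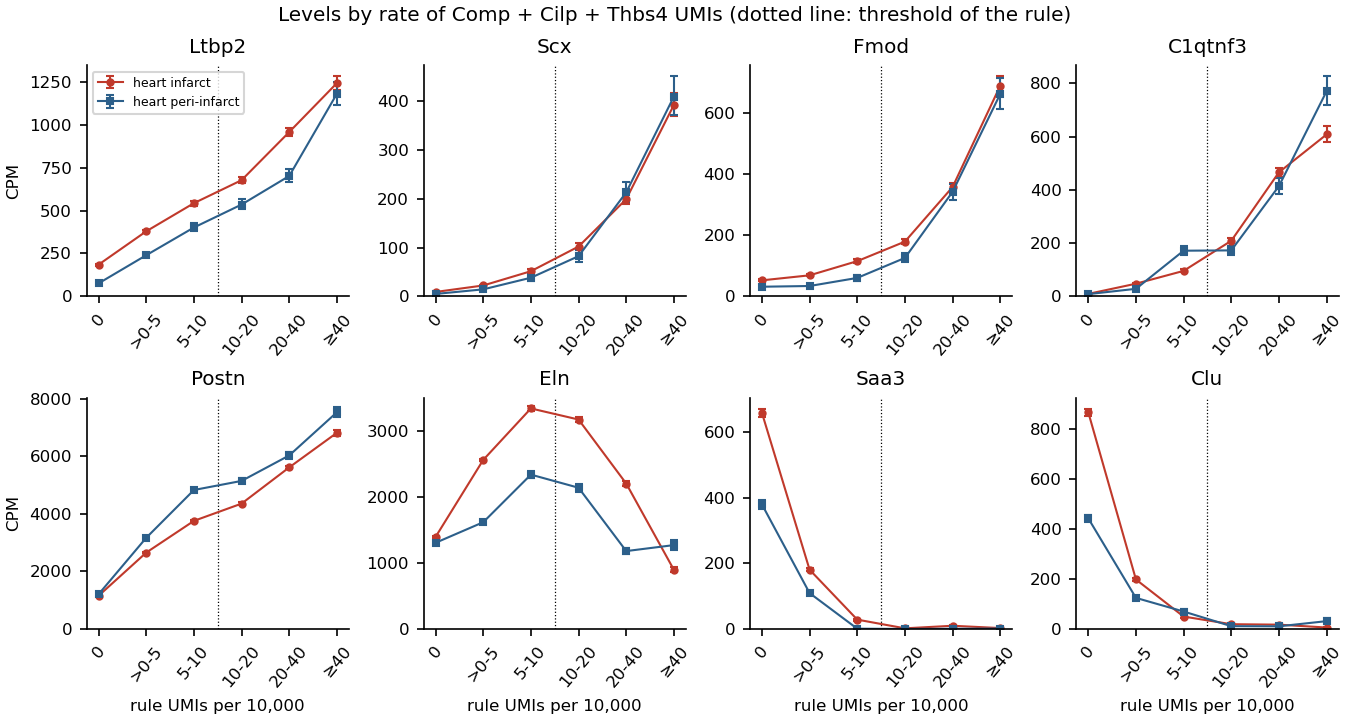
Summed level in CPM (vertical axis) by the rate of Comp, Cilp and Thbs4 UMIs per 10000 (horizontal axis) for 8 genes, with 95% Poisson intervals, infarct in red circles and peri-infarct in blue squares; the dotted line is the threshold of 10. Ltbp2, Scx, Fmod and Postn climb over the whole range in infarct, Eln peaks between 5 and 20, and Saa3 and Clu are highest in cells with no rule UMI.

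Members overlapped with cells rich in Cthrc1, a secreted collagen regulator of activated scar fibroblasts. At least 10 Cthrc1 UMIs per 10000 were held by 64.6% of infarct members (62.1 to 67.1) and 47.0% of peri-infarct members (41.3 to 52.7), against 34.0% and 13.7% of others. Pi16, a marker of adventitial fibroblasts, reached that rate in 26.9% and 29.1% of members, against 19.6% and 37.5% of others, and Dpep1 with Smoc2 in 3.07% and 5.43%, against 9.89% and 23.0%. Members were therefore also set against the 1264 infarct and 162 peri-infarct others with that Cthrc1 rate, a comparison chosen after values were seen. In infarct 15 genes (0.52%) were higher and 6 (0.208%) lower in members, and in peri-infarct 14 (0.472%) and 10 (0.337%). Of the 15 highest genes named against all others, C1qtnf3, Fibin, Fmod and Scx were among those also 2-fold over Cthrc1-rich others in both libraries. Scx stood at 177 CPM in members and 45.6 CPM in Cthrc1-rich others of infarct, and at 190 and 37.7 CPM in peri-infarct. Ltbp2 was 1.59-fold and 1.51-fold there, and Postn 1.43-fold and 1.12-fold. Acta2 was lower by the 2-fold rule in infarct, at 481 CPM in members and 1098 CPM in Cthrc1-rich others, and was 0.58-fold in peri-infarct. Of the complement and acute phase genes, 3 were tested against Cthrc1-rich others in each library and 0 were lower, with median log2 ratios of -0.10 and -0.39. Of the cytokines and chemokines, 1 of 4 was lower in infarct (Cxcl12) and 2 of 3 in peri-infarct (Cxcl1 and Cxcl12).

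Among themselves the members differed in which rule gene they held. In infarct 79.8% had a Comp UMI, 80.8% a Cilp UMI and 43.1% a Thbs4 UMI, and 30.2% had all of them. In peri-infarct the shares were 62.9%, 89.8%, 50.8% and 31.9%. Members with more Comp UMIs than Cilp and Thbs4 UMIs together, called Comp-led, made up 662 of the 1468 infarct members (45.1%) and 70 of the 313 peri-infarct members (22.4%). The remaining 806 and 243 are called Cilp- or Thbs4-led. This split was also chosen after values were seen, and it fixes the levels of the rule genes themselves. Median depth was close, at 11465.5 UMIs in Comp-led and 11842 in Cilp- or Thbs4-led members of infarct, and at 14344.5 and 15756 in peri-infarct.

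Cells were also chosen on 1 rule gene at a time, and the levels of the other rule genes in them are given as a description. Infarct cells with at least 10 Cilp UMIs per 10000 had Thbs4 at 868 CPM, against 61.3 CPM in the rest of the eligible cells, a fold of 14.2 (13.6 to 14.7), and Comp at 486 against 334 CPM, a fold of 1.45 (1.41 to 1.51). In peri-infarct those folds were 11.1 (10.4 to 11.9) for Thbs4 and 3.35 (3.14 to 3.56) for Comp. Cells chosen on Comp had Cilp 1.47-fold and Thbs4 1.87-fold in infarct, and 2.49-fold and 3.37-fold in peri-infarct. Scx was 9.36-fold and 14.8-fold in cells chosen on Thbs4, and 2.37-fold and 4.76-fold in cells chosen on Comp.

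The Comp-led and the Cilp- or Thbs4-led members were compared within each library. Among 2895 genes in infarct, 24 (0.829%) were higher by the 2-fold rule and 25 (0.864%) lower in Comp-led members, and of 2976 in peri-infarct, 25 (0.84%) and 30 (1.01%). The libraries shared 11 of the higher genes (45.8% and 44% of the calls) and 17 of the lower (68% and 56.7%), counts that include the rule genes. Of the latent TGF-beta binding and elastic fibre genes, 3 of 16 were higher in infarct (Eln, Fbln1 and Fbln5) and 2 of 17 in peri-infarct (Eln and Fbln5), with medians of 0.14 and 0.085. Of the matricellular genes, 1 of 16 was higher in infarct (Fgl2) and 1 of 18 in peri-infarct (Tgfbi), and 3 were lower in each (Tnc, Spp1 and Sparcl1), with medians of 0.0049 and -0.25. Eln stood at 4415 CPM in Comp-led members, against 1112 CPM in Cilp- or Thbs4-led members of infarct, a fold of 3.97 (3.89 to 4.05). In peri-infarct Eln stood at 4142 CPM, against 933 CPM, a fold of 4.44 (4.26 to 4.63), with 50.2% of the UMIs of the 70 Comp-led cells in 10 of them. Fbln5, which helps to assemble elastic fibres, was 2.28-fold and 2.52-fold. Over all members Eln was 1.08-fold and 1.03-fold the level of others, so the sum of the members hid this difference.

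Wisp2, a CCN family protein also called CCN5, stood at 1205 CPM in Comp-led and 204 CPM in Cilp- or Thbs4-led members of infarct, and at 910 and 108 CPM in peri-infarct. Adamtsl2, a secreted relative of the ADAMTS proteases that associates with microfibrils, was 3.64-fold and 4.01-fold, and Matn4, the matrix protein matrilin 4, was 3.75-fold and 3.36-fold. Tcf21, a transcription factor of epicardium-derived fibroblasts, stood at 121 and 140 CPM in Comp-led members, against 50.5 and 68.2 CPM in Cilp- or Thbs4-led members. Sfrp2, a secreted Wnt regulator, was 3.33-fold in infarct and 1.96-fold in peri-infarct, where it missed the threshold. Cytl1, a secreted protein of cartilage, stood at 122 CPM in Comp-led and 3.36 CPM in Cilp- or Thbs4-led members of peri-infarct, with its UMIs in 9 of the 70 Comp-led cells.

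On the other side, Tnc, the matricellular protein tenascin-C, stood at 34.0 CPM in Comp-led members, against 168 CPM in Cilp- or Thbs4-led members of infarct, a fold of 0.20 (0.18 to 0.23), and at 47.8 and 165 CPM in peri-infarct. Col12a1 stood at 106 and 271 CPM in infarct and at 80.2 and 245 CPM in peri-infarct. Mest stood at 13.7 and 98.4 CPM in infarct and at 5.97 and 103 CPM in peri-infarct, against 6.87 CPM in infarct others and 6.45 CPM in peri-infarct others. Tgfb1, the growth factor that CILP is known to counter, was 0.40-fold and 0.43-fold, and Igfbp6, a binding protein of insulin-like growth factors, was 0.26-fold and 0.45-fold. Scx was lower in Comp-led members of infarct, at 88.4 against 242 CPM, and was 115 against 211 CPM in peri-infarct, above the level of others in both. Fmod was 0.81-fold and 0.77-fold and Ltbp2 0.82-fold and 1.0-fold between the 2 kinds of member, close to each other in both libraries.

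**Figure D4:**
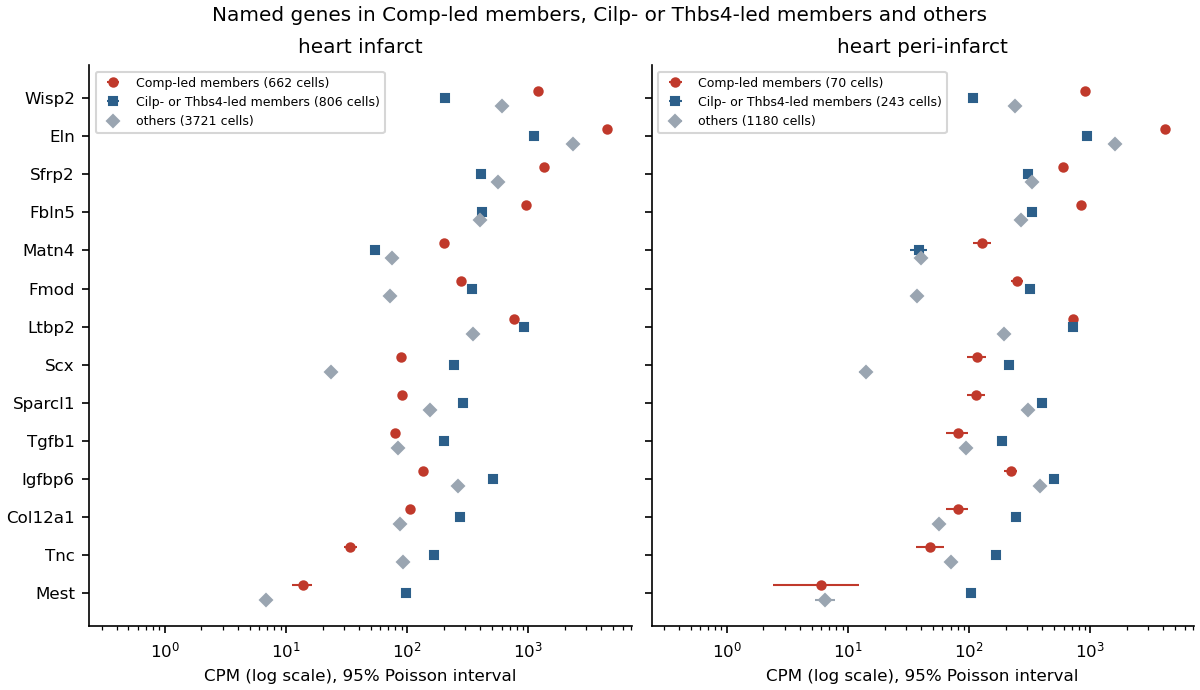
Summed level in CPM on a log axis, with 95% Poisson intervals, of 14 genes in Comp-led members (red circles), Cilp- or Thbs4-led members (blue squares) and others (grey diamonds), infarct left and peri-infarct right. Wisp2 and Eln are lowest in Cilp- or Thbs4-led members, Tnc is lowest in Comp-led members, and Scx, Fmod and Ltbp2 are higher in both kinds of member than in others.

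Infarct members were then set against peri-infarct members. Among 2947 genes, 6 (0.204%) passed the 2-fold line as higher in infarct members and 10 (0.339%) as lower, and the median log2 ratio was -0.03. The higher genes were Cxcl1, Cxcl2, Wisp2, Fosb, Sfrp2 and Matn4. The lower genes included Prg4 and Tnxb of the matrix lists, which were also lower by the 2-fold rule in infarct others than in peri-infarct others. Cxcl1, a chemokine for neutrophils, stood at 473 CPM in infarct members, against 158 CPM in peri-infarct members, and others differed in the same direction, at 887 CPM in infarct and 406 CPM in peri-infarct. Wisp2 stood at 631 CPM in infarct members, against 284 CPM in peri-infarct members, and at 605 and 238 CPM in others. Wisp2, Sfrp2 and Matn4 were also high in Comp-led members, which made up 45.1% of infarct and 22.4% of peri-infarct members. By the levels given above, Wisp2 was higher in infarct within each kind of member. In the 70 peri-infarct Comp-led cells, 51.8% of its UMIs lay in 10 of them. The part of the Comp-led shares in the difference between the libraries was not tested. Scx (0.93-fold), Fmod (1.03-fold), C1qtnf3 (0.96-fold) and Ltbp2 (1.19-fold) lay close between the members of the libraries, while Comp was 1.51-fold and Cilp 0.69-fold, both of them genes that the rule used.

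Cell division genes were lower in infarct members. Of the 8 genes of the cell cycle list that passed the filter, 5 were at least 2-fold lower (Mki67, Top2a, Ube2c, Prc1 and Stmn1), some of which passed through their level in peri-infarct members. Over all 16 genes of the list, with no filter, each had a lower CPM in infarct members, with folds of 0.25 to 0.83 and a median of 0.47. Mki67, a marker of dividing cells, stood at 23.1 CPM in infarct members, against 90.8 CPM in peri-infarct members, a fold of 0.25 (0.22 to 0.29), and at 45.5 and 47.9 CPM in others. Those UMIs came from few cells: 67 of 1468 infarct members (4.56%) and 29 of 313 peri-infarct members (9.27%) held an Mki67 UMI, and 10 peri-infarct cells held 72.2% of them. Top2a, the topoisomerase of dividing cells, stood at 30.2 CPM in infarct members, against 102 CPM in peri-infarct members. Without the 5% of cells with the most UMIs in each library, the log2 ratio of Mki67 was -0.18 and that of Top2a -0.13. With peri-infarct members weighted to the depth of infarct members they were -1.08 and -0.97, and with every cell thinned to 2000 UMIs -1.71 and -1.78. No doublet caller was run, and the part of doublets was not tested.

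**Figure D5:**
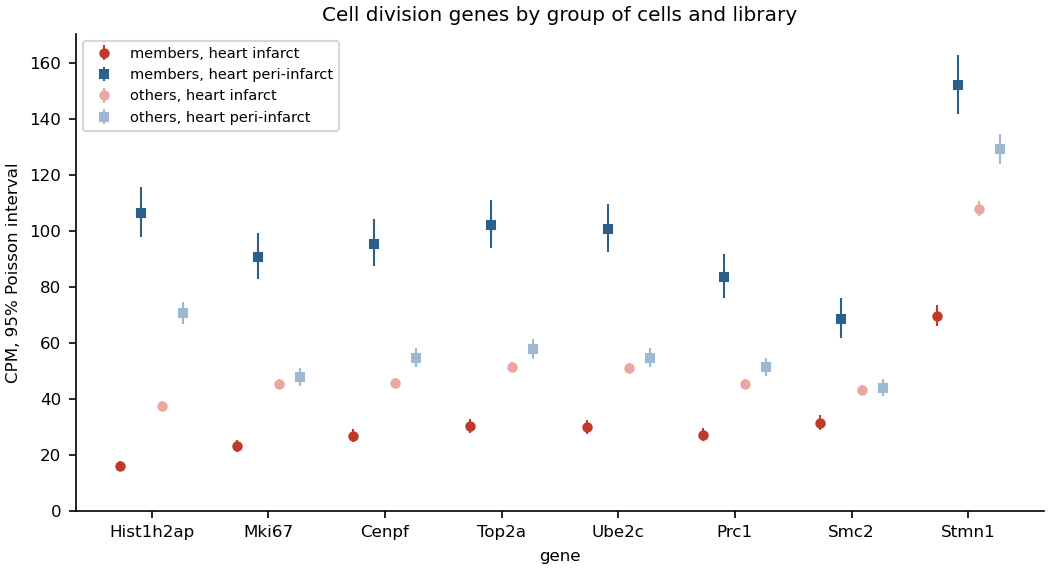
Summed level in CPM, with 95% Poisson intervals, of 8 cell division genes in infarct members, peri-infarct members, infarct others and peri-infarct others. Infarct members are lowest and peri-infarct members highest for each of the 8 genes, for example 23.1 CPM in infarct members and 90.8 CPM in peri-infarct members for Mki67. Mki67, Top2a, Ube2c, Prc1 and Stmn1 are the list genes called lower in infarct members, so that order of the members follows from their choice. Hist1h2ap, Cenpf and Smc2 come from outside the cell cycle list. They were named for their ratios in these same data, so their order is a description and adds no support.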

How the data were processed

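Single-cell RNA was measured in 6 libraries, 1 for each group, of which both injured heart libraries carry the comparisons. The deposited files are the authors' raw counts of UMIs for each gene in each cell barcode. Cell Ranger 3.0.2 is named in the file headers, and the mm10 genome and Seurat 3 in the submitters' processing notes. The files list 31053 genes. Empty droplets were not used here, so free RNA was not removed, and no doublet caller was run.

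The members and the gene lists were chosen with earlier results of these data known. For each group of cells the UMIs of a gene were added up, divided by the group's total UMIs and scaled to CPM. Ratios are log2 of (CPM + 1), and a gene was called when its mean CPM was at least 50 and its ratio at least 2-fold. Folds in the text are plain ratios of CPM with exact 95% Poisson intervals (scipy 1.17.1), and shares carry Clopper-Pearson intervals. Where a count was 0, the limit given is instead 3 divided by the number of cells. For brain infarct the upper Clopper-Pearson end would be 3.42%. With 1 library per group no p-value was computed, and cells were not used as replicates. For shares of cells with a UMI, cells were thinned to 1000 UMIs, and endothelial cells give the background. The 24 response lists are described by counts and medians.

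Genes named are the rule genes and Ltbp2, the 15 highest and 15 lowest of both libraries (ribosomal, mitochondrial, predicted and haemoglobin genes left out), the 8 highest and 8 lowest between the members of both libraries, up to 6 members of each list, and genes always named. Members of the Comp-led comparison, genes under the filter and 1500015O10Rik were added after values were seen. One gene that this rule names is not reported here. The summing and calling were tested on simulated counts. Alternatives changed the filters, thresholds, depth, weighting, scaling (TMM, edgeR 4.0.16 in R 4.3.3) and pseudocount. Another 3 were chosen after seeing the data: leaving out cells with an Msln or Upk3b UMI, leaving out shared barcodes, and choosing members on 50% of the UMIs.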

Additional observations from a re-analysis of the deposited data

How the results depend on the processing

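No paired analysis was possible because each group holds 1 library, and for the same reason no replicate could be left out. The share of eligible cells that are members was 28.3% in infarct and 21.0% in peri-infarct. It was 31.8% and 33.8% with collagens at 2% or more of UMIs, 13.97% and 10.98% at 20 rule UMIs per 10000, and 43.2% and 31.6% at 5 per 10000. In infarct it was 32.4% with cells thinned to 2000 UMIs and 29.7% without cells holding an Msln or Upk3b UMI.

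With a mean CPM of at least 10 in place of 50, members over others gave 50 higher and 131 lower genes in infarct and 87 and 179 in peri-infarct. Infarct over peri-infarct members gave 18 and 64, and Comp-led over Cilp- or Thbs4-led members 78 and 96 in infarct and 118 and 127 in peri-infarct. With no filter these counts were 90 and 411, 164 and 572, 74 and 192, 156 and 288, and 530 and 740, in the same order. The added genes have few counts. Genes lower in members than in others numbered 18 and 30 with collagens at 2%, 17 in infarct with each cell weighted equally, and 12 and 26 without cells holding an Msln or Upk3b UMI.

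Genes lower in infarct than in peri-infarct members numbered 0 with collagens at 2%, 5 without the 5% deepest cells, 1 with each cell weighted equally and 2 with peri-infarct members weighted to the depth of infarct members, against 10 as reported. The median log2 ratio of the cell cycle list in peri-infarct members over others was 0.62 and turned to -0.087 without the 5% deepest cells. Genes higher in Comp-led members numbered 44 in infarct and 41 in peri-infarct at 20 per 10000, 15 and 16 at 5 per 10000, and 15 and 85 with cells thinned to 2000 UMIs. Genes lower in them numbered 48 in peri-infarct at 20 per 10000 and 102 when thinned. The causes were not tested. Of the 19 genes higher in members of both libraries, 3 of them rule genes whose direction the choice fixes, at least 15 stayed called in both under every alternative run, and all 19 kept their sign. Of the 19 lower genes, 5 stayed called in both, and 18 kept their sign, without cells holding an Msln or Upk3b UMI. With collagens at 2% and with each cell weighted equally, 9 and 10 stayed called.

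The number of cells limits the Comp-led comparison in peri-infarct, which rests on 70 Comp-led cells, and counting intervals do not cover differences between animals.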
